A study of Homo sapiens with 4 samples.

Results

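CAV1, CAV2, MET and TES lie in 1 stretch of the long arm of chromosome 7, with noncoding RNA genes between some of them, in the order TES, CAV2, CAV1 and MET, all on the plus strand. They were chosen by gene symbol from 2 annotated ChIP-seq peak lists of HCT116 cells, with earlier results of these lists known, and every region whose assigned gene was one of the 4 symbols was taken once. This gave 31 of the 15789 H3K27ac peaks and 0 of the 13127 HSF1 peaks. Of the 31 H3K27ac peaks, CAV2 was assigned 15, MET 10, CAV1 5 and TES 1. Since the peak counts of these genes were known when they were chosen, their numbers and levels are given as a description without a test.

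HCT116 is an established human colorectal carcinoma cell line. The cells were untreated and formalin-fixed, and they gave 4 libraries: an H3K27ac immunoprecipitate (IP), an HSF1 IP, and a separate input library of unselected chromatin for each. There was 1 library per group and no replicate, so intervals below cover counting error only and say nothing of the variation between cultures. All positions of peaks and gene starts are those deposited for the genome build hg19.

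Caveolin-1, the product of CAV1, is the main structural protein of caveolae, the small flask-shaped pits of the plasma membrane, and caveolin-2, the product of CAV2, forms mixed oligomers with it. MET encodes the receptor tyrosine kinase for hepatocyte growth factor, which drives growth, scattering and invasion of epithelial cells and is a known oncogene in several carcinomas, colorectal carcinoma included. TES encodes testin, a LIM domain protein of focal adhesions and actin filaments. Acetylation of lysine 27 on histone H3 (H3K27ac) marks active promoters and enhancers, and dense runs of such peaks are often called super enhancers. HSF1 is the transcription factor of the heat shock response and binds repeated GAA units in alternating orientation.

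The promoters are shown because the H3K27ac peaks at these genes lay in different places relative to the start. Each sequence holds the 250 bases before and the 50 bases from the first start of the gene in RefSeq (GRCh38.p14, plus strand), written 5′ to 3′ with every CpG in capitals. The windows are chr7:116210289-116210588 for TES, chr7:116499488-116499787 for CAV2, chr7:116524759-116525058 for CAV1 and chr7:116671946-116672245 for MET in that build. These positions cannot be set directly against the hg19 peaks.
TES: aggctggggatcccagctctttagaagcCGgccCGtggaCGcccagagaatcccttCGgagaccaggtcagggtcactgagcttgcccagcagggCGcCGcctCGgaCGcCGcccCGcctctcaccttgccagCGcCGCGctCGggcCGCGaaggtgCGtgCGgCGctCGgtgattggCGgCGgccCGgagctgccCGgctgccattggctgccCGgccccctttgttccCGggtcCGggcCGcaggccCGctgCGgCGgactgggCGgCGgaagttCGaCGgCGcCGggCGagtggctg
CAV2: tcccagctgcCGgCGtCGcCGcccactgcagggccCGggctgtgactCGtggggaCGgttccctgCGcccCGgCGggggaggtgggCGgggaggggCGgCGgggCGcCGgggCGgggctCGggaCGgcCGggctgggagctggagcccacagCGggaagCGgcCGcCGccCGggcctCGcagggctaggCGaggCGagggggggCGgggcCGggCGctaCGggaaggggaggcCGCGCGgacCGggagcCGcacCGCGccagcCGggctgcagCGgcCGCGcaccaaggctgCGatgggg
CAV1: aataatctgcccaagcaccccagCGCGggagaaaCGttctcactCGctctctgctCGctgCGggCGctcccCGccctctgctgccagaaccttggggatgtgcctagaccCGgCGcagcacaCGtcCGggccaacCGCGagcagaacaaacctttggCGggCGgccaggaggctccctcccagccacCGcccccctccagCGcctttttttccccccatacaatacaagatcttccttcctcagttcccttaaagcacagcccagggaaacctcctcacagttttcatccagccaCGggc
MET: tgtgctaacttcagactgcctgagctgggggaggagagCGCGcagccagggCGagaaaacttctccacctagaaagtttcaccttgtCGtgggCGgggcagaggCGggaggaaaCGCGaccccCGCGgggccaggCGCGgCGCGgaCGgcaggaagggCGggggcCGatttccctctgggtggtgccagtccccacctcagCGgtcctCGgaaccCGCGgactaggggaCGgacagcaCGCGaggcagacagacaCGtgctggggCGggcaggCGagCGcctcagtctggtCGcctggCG

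The first CAV2 promoter held the most CpG of these 4 windows. It had 43 CpG and a GC content of 82.7%, against a median of 14 CpG and 58.7% over the 35097 promoter windows of the table. TES had 38 CpG, MET 30 and CAV1 19. CAV1 was thus the poorest in CpG of the first starts, yet the last of its starts, 1353 bp downstream, had 36 CpG. A second TES window, 12414 bp after the first, had only 4 CpG and was the only one of the 8 windows of these genes that held a TATA box (TATAAA on either strand, overlapping matches counted), with 2 matches. That box was found in 11.5% of all windows. A heat shock element of 3 units was found in 0 of the 8 windows and in 0.490% of all windows, its core GAANNTTC in 0 of 8 and in 6.77%, and the AP-1 site TGANTCA in 0 of 8 and in 7.71%. These matches only say whether the letters occur in a window of this length.

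All 4 genes had an H3K27ac peak, as did 24.7% of the 29853 genes of chromosomes 1 to 22 and X that have a curated RefSeq transcript. CAV2 and MET were assigned 10 or more, as were 0.636% of these genes. All 4 had a peak of the promoter class (midpoint within 2 kb of a start), as did 9.99%. Because the 4 genes were chosen with these counts known, the shares are printed beside them and nothing is read from them. Each peak carries a number of tags, which are the IP reads within it, and a fold enrichment over local background, both deposited by the authors. The 31 peaks had a median of 30 tags and ranged between 16 and 92, against a median of 24 in the whole H3K27ac list. Their median width was 1373 bp and the whole list's 1198 bp. Their median fold enrichment was 7.30, against 6.73. Of the 31 peaks, 17 lay above the list's median tag count and 18 above its median fold enrichment, so many of them were of ordinary size. The deposited false discovery rates of the 31 peaks ran from 10.16% to 100%.

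**Figure D1:**
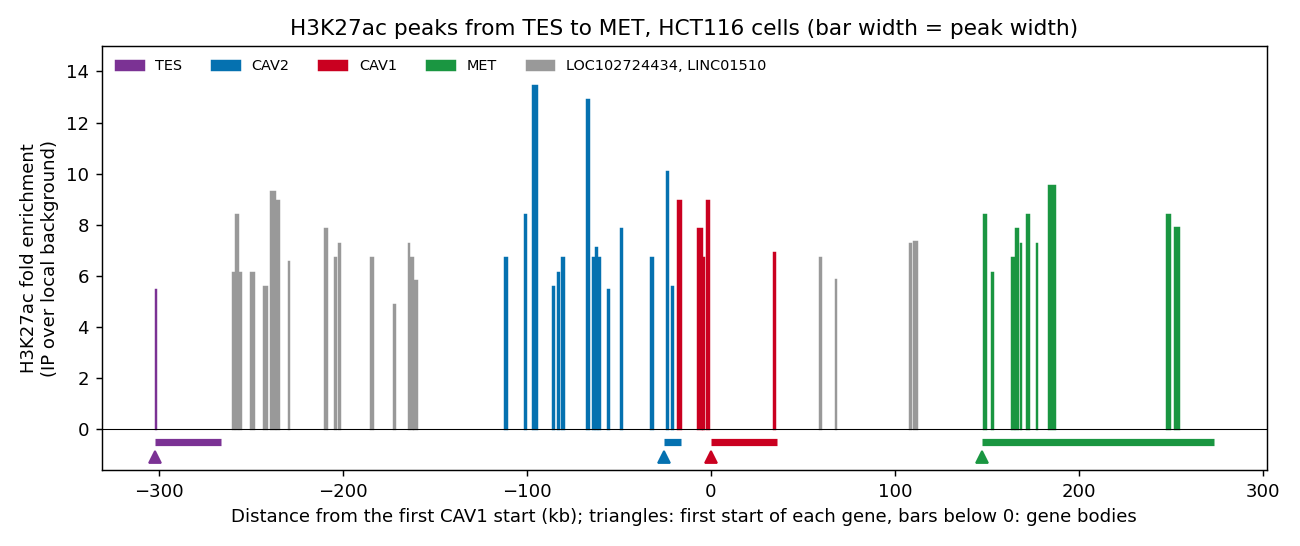
Fold enrichment over local background (y axis) of every H3K27ac peak between the TES and MET peaks, plotted by distance from the first CAV1 start in kb (x axis). Each bar is as wide as its peak, colours give the assigned gene, triangles the starts and lines below 0 the gene bodies, and the 2 bars above 12-fold belong to CAV2 and lie before its start.

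TES is the most upstream gene. Its only deposited start is at 115863006, with a body of 35.8 kb from there. This start lies 276.785 kb before the first CAV2 start. In RefSeq the second TES start, whose window has 4 CpG, lies the same distance before the first CAV2 start. The TES window printed above belongs to a start 12414 bp further upstream. Its 1 H3K27ac peak, chr7:115862587-115863560, had 21 tags (95% Poisson interval 13.0 to 32.1) over 974 bp and a 5.49-fold enrichment. It was one of the weaker peaks here, since both its tags and its fold enrichment were below the medians of the list. The peak covered the deposited TES start and reached from 419 bp before it to 554 bp after it. No H3K27ac peak was listed in the 123.7 kb before this peak, so none was listed at the printed TES window.

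CAV2 had the most peaks and, over them, the most tags of the 4 genes, although its body of 8.81 kb is the shortest. Its 15 peaks held 433 tags (interval 393 to 476) and covered 21072 bp. Only 1 of them was intronic and 1 was of the promoter class. Of the other 13, 1 was in the upstream class (2 to 20 kb before a start) and 12 were intergenic. These 12 lay between 86.4 and 23.7 kb before the first CAV2 start at 116139791, and they held 363 tags, which is 83.8% of the tags of CAV2. By RefSeq, 3 further loci, LOC105375463, LOC124900233 and CAV2-DT, stand between LOC102724434 and CAV2. None of these is named in the deposited lists, and assigning a peak to its nearest gene does not show that the peak acts on it.

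The highest fold enrichment at these genes was in chr7:116067902-116070414, 70.6 kb before the CAV2 start. This peak had 61 tags (46.7 to 78.4) over 2513 bp and a 13.47-fold enrichment, at percentile 99.95 of the list. Its tag count was less extreme, at percentile 94.5. The next highest was chr7:116097078-116098596, 42.0 kb before the start, with 32 tags and a 12.91-fold enrichment. Both are distal peaks with a higher fold enrichment than the other 10 intergenic peaks of CAV2, which ranged between 5.49 and 8.42. In tags the 12.91-fold peak did not stand out, since others of these intergenic peaks had 39 and 40.

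The promoter-class peak of CAV2, chr7:116140681-116141609, came next in fold enrichment with 10.1 but had only 20 tags over 929 bp. It did not reach either CAV2 start. Its near edge lay 582 bp after the second start at 116140099 and its summit 1512 bp after the first. The intronic peak, chr7:116143539-116144536, also had 20 tags, at a 5.61-fold enrichment. The peaks within and just after the CAV2 start were thus the smallest of the gene, and its larger peaks lay far upstream.

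**Figure D2:**
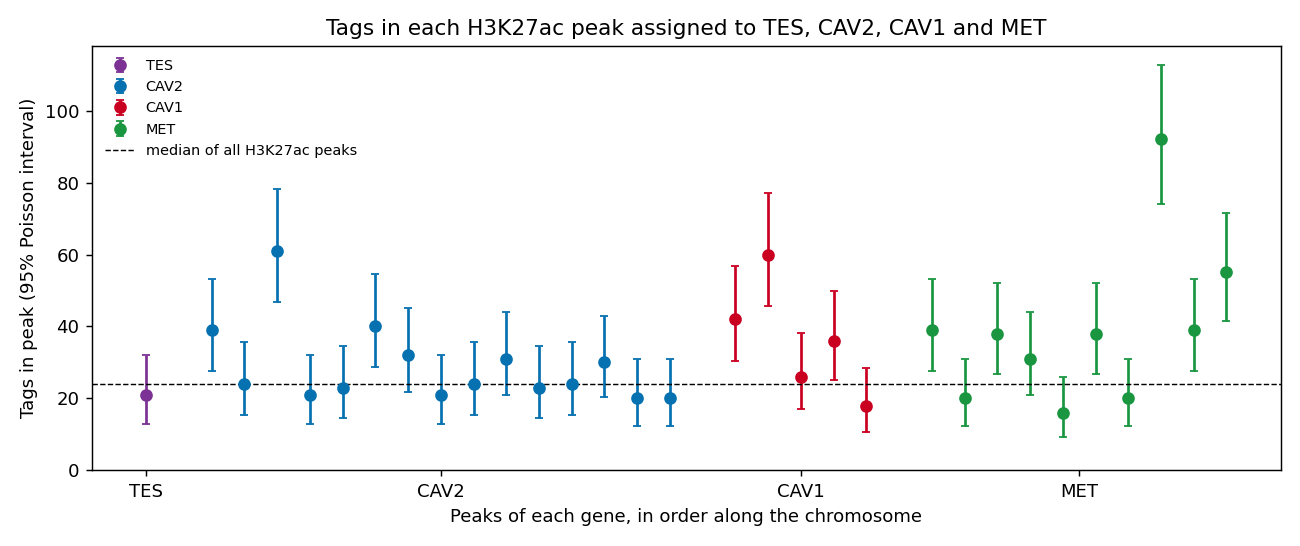
Tags in each of the 31 H3K27ac peaks (y axis, with exact 95% Poisson intervals) in their order along chromosome 7 (x axis), coloured by assigned gene. The dashed line is the median of the whole list at 24 tags, and the highest point is a MET peak with 92 tags.

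CAV1 starts at 116165062, 25.3 kb after CAV2, with further starts 27 and 1353 bp on, and has a body of 36.2 kb. Its 5 peaks held 182 tags (157 to 210) and covered 8159 bp. All but 1 of these peaks lay before the CAV1 start. The first, chr7:116146737-116148713, had 42 tags and an 8.98-fold enrichment, and 1859 bp of it lay inside the CAV2 body although it was assigned to CAV1. The largest, chr7:116157472-116160095, had 60 tags (45.8 to 77.2) over 2624 bp at 7.86-fold. Only 0.019 kb separates it from the next peak, with 26 tags at 6.73-fold, so these 2 peaks nearly touch. The promoter-class peak, chr7:116162598-116164078, had 36 tags at 8.98-fold and ended 984 bp before the first start. The last peak, chr7:116198937-116199806, had 18 tags at 6.94-fold and was the only exonic peak of the 31. It lay 1.43 kb before the end of CAV1 and 34.9 kb after the promoter-class peak, with no H3K27ac peak listed in between.

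MET starts at 116312249, 147 kb after CAV1, and its body spans 126 kb. Unlike those of CAV2 and CAV1, all peaks assigned to it lay after the start, 9 of the 10 in introns and 1 in the promoter class. The nearest peaks before the start, chr7:116272772-116273907 with 23 tags and chr7:116275133-116276913 with 34, were assigned to the noncoding RNA gene LINC01510. This contrast between the genes therefore depends on which gene each peak was assigned to. The 10 MET peaks held 388 tags (350 to 429) and covered 17378 bp. The promoter-class peak, chr7:116313014-116314677, had 39 tags at 8.42-fold and began 765 bp after the start. The next 7 peaks ran on through the first part of the gene and ended with chr7:116348118-116351942, whose midpoint is 37.8 kb from the start. That peak was the largest of the 31, with 92 tags (74.2 to 113) over 3825 bp and a 9.54-fold enrichment. It was at percentile 98.1 of the list in tags, 98.2 in width and 96.6 in fold enrichment. After a stretch of 60.7 kb without a peak, 2 more peaks followed at 101 and 106 kb from the start, with 39 tags at 8.42-fold and 55 tags (41.4 to 71.6) at 7.90-fold.

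The genes differed more in the number of their peaks than in the density of tags within them. The median tag density was 21.6 tags per kb in TES, 19.97 in CAV2, 21.5 in CAV1 and 22.7 in MET, against 20.5 over all H3K27ac peaks. Median tags per peak were 24 in CAV2, 36 in CAV1 and 38 in MET. The wider peaks held more tags, with a Spearman correlation of 0.97 across the 31 peaks and 0.957 across the list, and the peaks share 1 library, so these values are descriptions across peaks. By tag total, CAV2 was number 128, MET 159, CAV1 505 and TES 5415 of the 7362 genes with an H3K27ac peak. CAV2 was number 7 by its highest fold enrichment, MET 396, CAV1 697 and TES 6636.

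**Figure D3:**
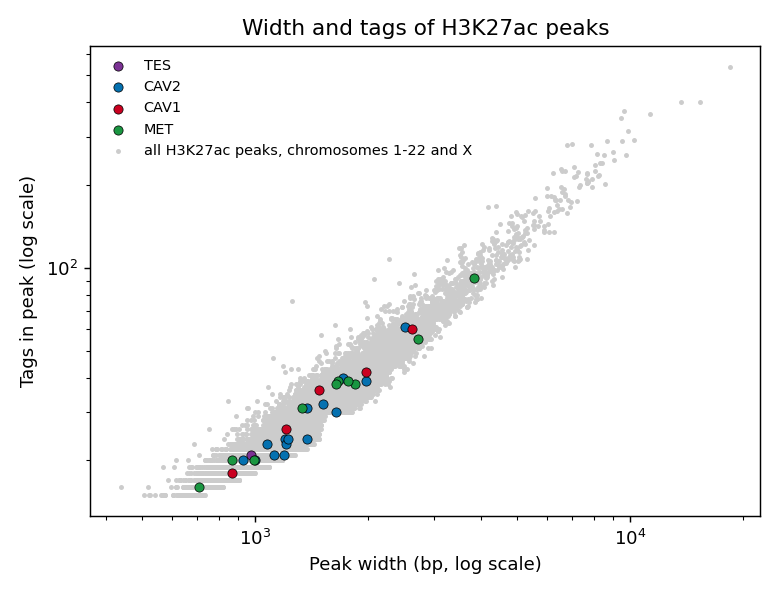
Tags per peak (y axis, log scale) against peak width in bp (x axis, log scale) for the H3K27ac peaks of TES, CAV2, CAV1 and MET in colour and for all peaks of the list in grey. The 31 peaks lie within the band of the list, between 711 and 3825 bp wide.

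By annotation class the 31 peaks and the list were as follows, and no difference was tested. Intergenic peaks were 38.7% of the 31 and 30.6% of the list, and intron peaks 32.3% and 33.4%. Promoter-class peaks were 12.9% and 16.7%, upstream peaks 12.9% and 18.2%, and exon peaks 3.23% and 1.05%. The exon share of 3.23% was 1 peak. Of the 4 promoter-class peaks only that of TES covered a start, and over the list 759 of 2641 such peaks did (28.7%, Clopper-Pearson interval 27.02 to 30.51). The position beside the start at CAV2, CAV1 and MET is therefore common in this list.

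The 4 genes stand in a stretch with many more H3K27ac peaks than the chromosome around it. Between the TES peak and the last MET peak, chr7:115862587-116419690, there were 51 peaks in 557 kb, which is 91.5 per Mb, against 5.15 per Mb over chromosome 7 and 5.37 over chromosomes 1 to 22 and X. Peaks covered 13.6% of it, against 0.678% of chromosome 7. The stretch held 2890 tags per Mb, against 142. Peak size differed far less, with a median of 27 tags, against 23 on chromosome 7. The TES, CAV2, CAV1 and MET peaks made up 60.8% of the 51 peaks and 63.6% of the tags. The rest belonged to 2 noncoding RNA genes. LOC102724434, between TES and CAV2, was assigned 16 peaks with 496 tags, 20 to 61 per peak, at 4.89- to 9.34-fold. LINC01510, between CAV1 and MET, was assigned 4 peaks with 90 tags at 5.88- to 7.38-fold. By tag total the peaks of LOC102724434 were therefore above those of each of the 4 genes.

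In 500 kb bins along this stretch, the peak number was highest in the bin of the CAV2, CAV1 and MET starts. It held 40 H3K27ac peaks, those of LOC102724434, LINC01510 and CAPZA2 within it included, and only 7 of 6069 bins, itself included, held as many or more. The bin before it, with peaks of TFEC, TES and LOC102724434, held 17, and the bin after it 8. The median bin held 1.

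**Figure D4:**
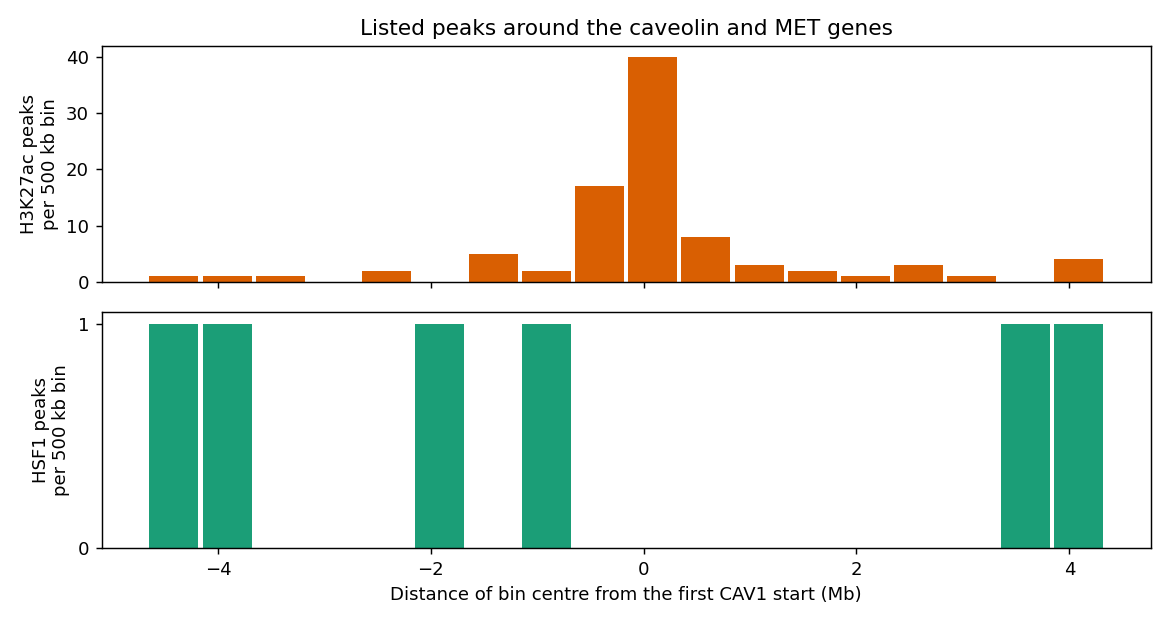
H3K27ac peaks (upper panel) and HSF1 peaks (lower panel) per 500 kb bin, against distance in Mb from the first CAV1 start. The H3K27ac count reaches 40 in the bin of CAV2, CAV1 and MET, where the HSF1 count is 0.

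Joining peaks within 10 kb and ranking the 10294 resulting regions by width times fold enrichment, summed over their peaks, set 278 regions above the tangent point of the curve, a usual way to pick super enhancers. Of the 31 peaks, 27 fell into 4 regions above that point. The largest was the first part of MET, chr7:116313014-116351942, with 8 peaks and 294 tags over 38.9 kb, at rank 83. The region of CAV1 and CAV2, chr7:116131879-116164078, ran from before the CAV2 start to just before the CAV1 start with 7 peaks and 234 tags, at rank 124. CAV2 had 2 more regions of its own further upstream, each with 6 peaks, at ranks 137 and 233. Below the point stayed the last 2 MET peaks at rank 635, the exonic CAV1 peak at rank 7976 and the TES peak at rank 9051. The regions depend on the distance over which peaks are joined. With 5 kb, 12 of the 31 peaks were in regions above the tangent point and the CAV1 region was just below it. With 20 kb, CAV1 and CAV2 formed 1 region of 111.7 kb with 19 peaks and 597 tags, at rank 33.

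**Figure D5:**
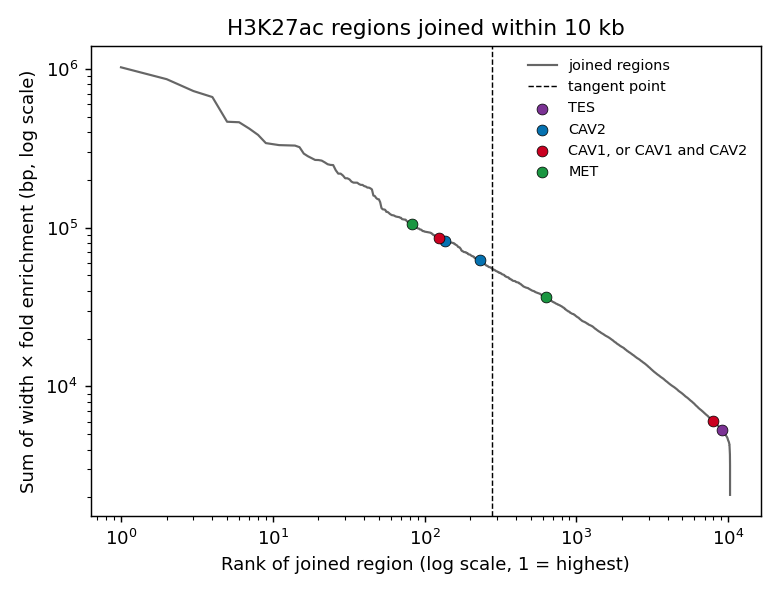
Sum of width times fold enrichment (y axis, log scale) of joined H3K27ac regions by rank (x axis, log scale), with regions of TES, CAV2, CAV1 and MET in colour and the tangent point as a dashed line. Regions at ranks 83, 124, 137 and 233 are left of the line at 278, and those at 635, 7976 and 9051 right of it.

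None of the 4 genes was assigned an HSF1 peak, as was the case for all but 13.6% of genes, and no HSF1 peak lay between the TES and MET peaks under any gene's name. At the density of HSF1 peaks on chromosome 7, 4.01 per Mb, a stretch of that length would hold 2.23. A count of 0 allows up to 5.38 per Mb, so a lower density than that of the chromosome was not detectable within that stretch alone. From the TES start it was 608 kb to the nearest HSF1 peak, and it was 885 kb from CAV2, 910.5 kb from CAV1 and 1058 kb from MET. The stretch without an HSF1 peak ran over 4.63 Mb, between chr7:115253678-115254595 with 14 tags at 4.87-fold and chr7:119886736-119887842 with 16 tags at 4.43-fold. Both of these are near the list's minimum score of 30. Of the 13096 gaps between HSF1 peaks, 22 were as long or longer, and 75 H3K27ac peaks lay within this one.

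Genes that work with the caveolins, MET and TES are read against the 24.7% of all genes with an H3K27ac peak and the 13.6% with an HSF1 peak. Of 10 genes of the caveola coat and the flotillins, which form other membrane domains, 7 had an H3K27ac peak (70.0%, Clopper-Pearson interval 34.8 to 93.3). CAV3, the muscle caveolin, had 3 peaks with 74 tags and a highest fold enrichment of 10.66. CAVIN2, a coat protein, had 5 peaks with 155 tags at up to 8.98-fold. PACSIN2, a membrane-bending protein at caveolae, had 62 tags and FLOT1 185 tags, both at up to 7.86-fold. CAVIN1, a coat protein needed for caveolae to form, had 1 peak with 22 tags at 6.73-fold. The coat proteins CAVIN3 and CAVIN4 had 2 peaks with 43 tags at up to 7.30-fold and 3 peaks with 57 tags at up to 7.69-fold. EHD2, PACSIN3 and FLOT2 had none. CAVIN4 also had the only HSF1 peak of this group, with 22 tags at 4.15-fold, 144 kb from its start.

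Of 26 genes of MET signalling, 11 had an H3K27ac peak (42.3%, 23.4 to 63.1, against 24.7% of all genes), and HGF, the ligand, had none. PTPN1, a phosphatase that acts on receptor kinases, had 13 peaks with 319 tags at up to 9.34-fold. ST14, a protease that activates the ligand, had 1 peak with 21 tags at 8.98-fold. The adaptor GAB1 had 1 peak with 24 tags and the regulatory subunit PIK3R1 2 peaks with 57 tags, both at up to 8.42-fold. HSF1 peaks were assigned to 3 genes of this group that had no H3K27ac peak, namely SPINT2, an inhibitor of the activating proteases, with 15 tags at 4.74-fold, CRKL, an adaptor, with 20 tags at 4.87-fold, and LRIG1, a negative regulator of receptor kinases, with 15 and 14 tags.

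Of 13 partners of TES and LIM proteins of focal adhesions, 9 had an H3K27ac peak (69.2%, 38.6 to 90.9, against 24.7% of all genes). LPP, a LIM protein, had 12 peaks with 345 tags at up to 8.42-fold. Vinculin (VCL) had 2 peaks with 44 tags at up to 7.86-fold. ENAH, an actin regulator, had 42 tags and ACTN4, an actin crosslinker, 227 tags, both at up to 7.30-fold. HSF1 peaks were assigned to ENAH, with 14 tags, and to LIMD1, with 19, each at 4.87-fold. Over the 3 groups 27 of 49 genes had an H3K27ac peak, against 24.7% of all genes, and 6 had an HSF1 peak, a share close to the 13.6% of all genes. These intervals treat the genes as independent draws and cover counting error only, and no group was tested. The shares of all genes include noncoding RNA genes, whereas the 3 groups hold protein-coding genes, and gene length was not matched. The 2 kinds of share are therefore not like for like.

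Markers of cell types are given as a description. Their lists were chosen with earlier results of these data known, so they do not check the identity of the cells. Of 10 colon epithelial markers 6 had an H3K27ac peak, against 24.7% of all genes. These included CLDN4 at 10.1-fold, KRT20 at 9.54-fold and KRT8 at 9.34-fold, whereas EPCAM, CDX1, CDX2 and VIL1 had no H3K27ac peak. Of 8 markers of other cell types 2 had one, VWF and PTPRC, a share close to the 24.7% of all genes. The list is of peaks, so a gene without one may still carry the mark below the threshold of the caller.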

How the data were processed

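ChIP-seq was performed on untreated, formalin-fixed HCT116 cells, with 1 library each for the H3K27ac IP, the HSF1 IP and their inputs. The authors sequenced on an Illumina instrument, used FastQC and Bowtie2 2.2.7 per the labels, and called peaks of each IP over its input with MACS against hg19. Mapped read totals are not given in the sources used, so depth is known only within peaks, as 485046 tags for H3K27ac and 317289 for HSF1. Tag counts per peak were deposited by the authors without normalization. The deposited score is 10 times the negative logarithm of the caller's p-value, with minima of 50 and 30. The fold enrichment is the ratio of IP to local background that the authors deposited, and false discovery rates were deposited in percent. Among the 31 peaks the rate was lowest, 10.16%, at the lowest score, 54.43. It was highest, 100%, at the highest score, 285.74, which is that of the MET peak with 92 tags. Fold enrichments come partly in steps, as 26 of the 31 peaks lie within 0.006 of a multiple of 0.561, as do 54.4% of the list, so small differences in fold can be 1 step.

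The deposited lists give a row per peak and transcript and were reduced to 1 entry per region. Symbols were matched by accession to RefSeq (GRCh38.p14), 7346 of 7390 for H3K27ac and 4066 of 4101 for HSF1. Positions of that build were not set against peaks, except for TES. The TES starts were matched between builds by their distance to the first CAV2 start. Intervals are exact 95% Poisson for tags and Clopper-Pearson for shares. Tags are reads and not independent molecules. A limit for a count of 0 uses 3 counts. No test was run, with 1 library per group. The members and gene lists were chosen with earlier results of these data known. Genes named are the 4 genes, every gene assigned a peak between them, up to 4 genes per list by fold enrichment, those with an HSF1 peak, and the 3 genes nearest each in tag total. Genes named outside this rule, such as list members without a peak, markers and flanking genes, were chosen after their values were seen. Caveolin proteins and peak sequences were not analysed here. Steps were tested on simulated data. Python 3.11.15, scipy 1.17.1, matplotlib 3.10.9, pandas 2.3.3 and numpy 2.4.6 were used.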

Additional observations from a re-analysis of the deposited data

How the results depend on the processing

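The number of H3K27ac peaks at the 4 genes was 31, and it was 12 at a score of 100 or more, 10 at a fold enrichment of 8 or more and 105 when every deposited row was counted, since a region has a row per transcript. It was 29 with at least 20 tags and 28 within 50 kb of a start. TES had none at the stricter score or fold. The number of HSF1 peaks was 0 under both alternatives. The peak density of the stretch was 17.0 times that of chromosomes 1 to 22 and X, 29.6 times at a score of 100 or more, and 13.5 times with 100 kb added on both sides. Of the 31 peaks, 27 were in regions above the tangent point, 12 with joining within 5 kb, 27 within 20 kb and 21 by tags. With all promoter-class peaks left out, 4 of the 31 among them, 19 of the remaining peaks were above it. Of the 49 pathway genes, 27 had an H3K27ac peak, 11 one of the promoter class and 7 one of 8-fold or more. No paired analysis was possible because each group has 1 library, and for the same reason no replicate could be left out. Depth limits single peaks, since the median peak of 24 tags has a wide counting interval.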

Other observations

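The genes nearest to CAV2 in H3K27ac tag total were CCAT1 with 430 tags, BABAM2 with 435 and INPP4B with 436, against 433 for CAV2. They reached such totals in different ways, since CCAT1 had 2 peaks and BABAM2 16. MET, with 388 tags, was nearest to CDCP1 with 389, ITGA3 with 390 and EHF with 385. At 182 tags CAV1 tied with 4 genes, among them GPRC5A with 5 peaks. TES shared its 21 tags with 265 genes, and none is named. The likeness is of 1 number in 1 library.

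H3K27ac peaks went on past the end of MET. Of the 4 peaks assigned to CAPZA2, which encodes an actin capping subunit, 3 began within 15 kb of that end, the first 4.63 kb after it with 16 tags at 7.30-fold. The next had 28 tags at 9.54-fold and the last of the 3 had 26 tags at 8.42-fold. On the other side, the nearest peak before the TES peak lay 124 kb from it and belonged to TFEC, a transcription factor gene with 3 peaks of 17 to 27 tags. In the 500 kb beyond each end there were 3 peaks before TES and 9 after the last MET peak, so the MET side held more than the TES side.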
